A study of Mus musculus with 2 samples.

Results

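The meiotic checkpoint and unsynapsed chromatin silencing genes examined here were 9 genes chosen by symbol: Hormad1, Hormad2, Trip13, Atr, Topbp1, Brca1, Mdc1, H2afx and Rnf8. All 9 were found among the 21911 protein-coding genes of the GENCODE vM21 mouse annotation, and the rule that chose them uses symbols alone, although earlier results of these data were known when the list was made. Accessible chromatin was mapped by DNase-seq, which sequences the ends left where the enzyme DNase I has cut DNA not shielded by nucleosomes. The tissue was whole testis of male B6CASTF1/J mice, an F1 hybrid strain, at 14 days of age. There was 1 group with 2 libraries, labelled biological replicates 1 and 2, with no treatment, engineered allele or other group. The label of replicate 1 names 3 males, that of replicate 2 gives no number, and both carry the same donor label. The spread between the libraries may therefore be technical in part, and no test between groups was possible.

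In meiotic prophase, homologous chromosomes align and become joined along their length by synapsis. HORMAD1 and HORMAD2 coat the chromosome axes that are still unsynapsed, and the ATPase TRIP13 is needed to remove them from synapsed axes. On axes that stay unsynapsed, which in males include most of the X and Y chromosomes, BRCA1 and the HORMADs help to recruit the checkpoint kinase ATR, and TOPBP1 activates it. ATR phosphorylates the histone variant H2AX, MDC1 binds the phosphorylated histone and carries the signal into chromatin loops, and the ubiquitin ligase RNF8 acts downstream of MDC1. The chromatin marked in this way is silenced, and germ cells that fail to synapse or to silence the sex chromosomes are lost.

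For each gene, promoter windows reached 1000 bp to either side of every annotated transcription start. The promoter value was the value of the highest DNase-seq peak that touched a window, in the authors' own units. These values rank peaks within a library, and reads per peak are unknown. Open genes are those with such a peak in both libraries. All 9 genes were open, as were 15057 of all protein-coding genes, or 68.7%, so the count alone says little about the 9 genes. Their levels stood higher than that of the usual open gene. The median promoter value of the 9 genes was 8.90 in replicate 1 and 7.38 in replicate 2 (8.14 ± 1.1, SD, n = 2). The median of all open genes was 4.04 and 3.68 (3.86 ± 0.26, SD, n = 2). Because the tissue is a mixture, a lower share of cells with an open promoter and a less accessible promoter in each cell cannot be told apart.

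Replicate 1 listed 101172 peaks and replicate 2 listed 117359, of which 82.6% and 71.4% touched a peak of the other library. Open genes had a median log2 ratio, replicate 2 to replicate 1, of -0.07. The tissue label was set against marker genes. Promoter peaks were listed in both libraries at 8 of 8 germ cell markers (Ddx4, Dazl, Sycp1 and Sycp3 among them), 6 of 6 Sertoli, 5 of 6 Leydig and 3 of 3 myoid markers. The summed marker values were 49.9 and 51.6 for germ cells, 10.9 and 12.0 for Sertoli cells, 5.63 and 6.40 for Leydig cells, and 3.98 and 3.75 for myoid cells. These sums grow with the number of markers in a list. The medians were 6.73 and 6.57 for germ cells and 2.07 and 2.05 for Sertoli cells. Leydig markers had 0.704 and 0.698, below the myoid medians of 0.903 and 0.974. No peak was listed in both libraries at any of 5 spermatid or 3 epididymis markers, with Prm1, Prm2, Crisp1 and Adam7 at 0 and single-library values of 0.226 at Tnp1 and 0.464 at Lcn5 in replicate 2. One gene was open of the 5 leukocyte, the 3 endothelial and the 3 erythroid markers in each case, and no marker of these 3 cell types exceeded 0.522 in either library. All 9 genes lay above the highest Sertoli marker value, 3.53, but so did the median of all open genes, 4.04 and 3.68. Of the germ cell markers, Ddx4, Dazl, Mael, Sycp1 and Sycp3 lay above it, and Stra8, Zbtb16 and Kit below. The part of each cell type in the peaks of the 9 genes was not tested.

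The sequences just upstream of the start carry the protected stretches described further on, and are shown for 2 genes of each step, the axis, the kinase and the spreading of the signal. A footprint is a short stretch inside accessible DNA that the enzyme cuts less often than its flanks. Each sequence runs 5′ to 3′ on the strand of its gene and ends at the base before the annotated 5′ end. Each reaches up to the outer edge of the listed peak, or to the first exon of a neighbouring gene for Topbp1. Capitals mark bases that lie in a footprint in both libraries. The letters are those of the mm10 reference (GRCm38.p6), and the castaneus-derived allele of the hybrid was not read. The axis genes come first, Hormad1 at chr3:95559521-95559676 on the plus strand and Hormad2 at chr11:4441106-4441320 on the minus strand.
Hormad1: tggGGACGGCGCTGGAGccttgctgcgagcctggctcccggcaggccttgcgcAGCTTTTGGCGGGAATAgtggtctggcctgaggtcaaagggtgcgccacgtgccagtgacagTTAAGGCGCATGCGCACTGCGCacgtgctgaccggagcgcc
Hormad2: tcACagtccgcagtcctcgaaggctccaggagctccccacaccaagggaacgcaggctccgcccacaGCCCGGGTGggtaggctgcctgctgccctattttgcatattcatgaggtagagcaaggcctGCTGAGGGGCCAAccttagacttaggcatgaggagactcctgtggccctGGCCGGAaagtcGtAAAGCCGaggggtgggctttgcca
The kinase module follows, with Atr at chr9:95857481-95857596 and Topbp1 at chr9:103305083-103305214, both on the plus strand.
Atr: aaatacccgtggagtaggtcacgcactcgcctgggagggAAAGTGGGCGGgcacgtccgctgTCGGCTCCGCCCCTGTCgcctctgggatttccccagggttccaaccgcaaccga
Topbp1: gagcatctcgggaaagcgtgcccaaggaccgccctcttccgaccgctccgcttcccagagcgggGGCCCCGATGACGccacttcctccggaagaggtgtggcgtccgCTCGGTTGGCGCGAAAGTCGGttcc
The pair with the highest values comes last, Mdc1 at chr17:35841241-35841514 and H2afx at chr9:44334441-44334693, both on the plus strand.
Mdc1: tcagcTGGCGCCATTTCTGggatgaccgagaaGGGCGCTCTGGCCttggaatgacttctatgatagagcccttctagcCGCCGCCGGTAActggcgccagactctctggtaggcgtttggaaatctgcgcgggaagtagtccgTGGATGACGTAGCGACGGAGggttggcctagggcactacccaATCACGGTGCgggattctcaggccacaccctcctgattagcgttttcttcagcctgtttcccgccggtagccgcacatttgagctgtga
H2afx: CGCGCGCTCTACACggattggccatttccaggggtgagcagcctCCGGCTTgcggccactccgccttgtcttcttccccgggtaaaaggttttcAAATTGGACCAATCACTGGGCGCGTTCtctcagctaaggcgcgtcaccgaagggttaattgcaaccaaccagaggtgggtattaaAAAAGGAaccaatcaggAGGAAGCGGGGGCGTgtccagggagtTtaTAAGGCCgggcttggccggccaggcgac
In these stretches, 53 of 156 bases were in shared footprints at Hormad1, 39 of 215 at Hormad2, 28 of 116 at Atr, 34 of 132 at Topbp1, 69 of 274 at Mdc1 and 78 of 253 at H2afx.

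The 3 genes of the axis module had the lowest promoter values of the 9. Hormad1 (chr3:95559677-95587671), which encodes a HORMA-domain protein of unsynapsed axes, had 5.83 in replicate 1 and 5.38 in replicate 2 (5.60 ± 0.32, SD, n = 2). Its peak had identical edges in both libraries, 180 bp wide and centred 66 bp upstream of the 5′ end. Hormad2 (chr11:4345814-4441105), the second axis protein of this kind, had 3.96 and 4.65 (4.31 ± 0.49, SD, n = 2). It stood nearest to the usual open gene, with 49.4% and 56.8% of open genes below it. The lowest Hormad1 value lay above the highest Hormad2 value, so the libraries of these genes did not overlap.

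Trip13 (chr13:73911347-73937784), the gene of the HORMAD-removing ATPase, had 6.24 and 5.52 (5.88 ± 0.51, SD, n = 2). Its range overlapped that of Hormad1. The peak was shared with Brd9, a bromodomain gene on the opposite strand whose 5′ end lies 27 bp away. The peak's centre was 3 and 7 bp from a Trip13 start and 30 and 20 bp from a Brd9 start, so its value cannot be assigned to either gene alone.

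The genes of the kinase module were intermediate. Atr (chr9:95857597-95951781), which encodes the checkpoint kinase, had 7.42 and 6.87 (7.15 ± 0.39, SD, n = 2), above both Trip13 values. Its main peak spanned the same 240 bp in both libraries and was centred 4 bp downstream of the 5′ end. The noncoding antisense gene 1700065D16Rik has a start inside this peak, at -80 bp from the Atr 5′ end. Topbp1 (chr9:103305215-103350428), the gene of the ATR activator, had 8.90 and 8.68 (8.79 ± 0.15, SD, n = 2), the closest replicate pair of the 9. That peak lay between the 5′ ends of Topbp1 and of the divergent gene 1300017J02Rik, 133 bp apart, and its centre was 64 and 69 bp from them.

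Brca1 (chr11:101488764-101551955), whose product helps to bring ATR to unsynapsed axes, had 9.87 and 13.1 (11.5 ± 2.3, SD, n = 2) by the rule of the highest peak. That peak was centred 766 and 746 bp upstream of the Brca1 5′ end and only 67 and 47 bp from a start of Nbr1, an autophagy receptor gene that is transcribed away from Brca1. A separate peak covered the Brca1 5′ end itself, centred 34 and 14 bp downstream of it, with 6.19 and 6.55 (6.37 ± 0.26, SD, n = 2). This peak also lies in a promoter window of Nbr1, whose 5′ end is 194 bp from that of Brca1. Its value therefore cannot be assigned to Brca1 alone. Placed by the mean of the peak at its 5′ end, Brca1 moved from the third rank to between Atr and Trip13. Its order with Trip13 switched between the libraries, with Trip13 at 6.24 in replicate 1 and 5.52 in replicate 2. The own-start values of the libraries lay close together, and those of the Nbr1 peak did not. The 85 bases upstream of the Brca1 5′ end within the own-start peak, chr11:101551956-101552040 on the minus strand, show 25 bases in footprints of both libraries.
Brca1: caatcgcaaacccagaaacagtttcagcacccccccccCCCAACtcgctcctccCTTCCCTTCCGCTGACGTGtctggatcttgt

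Of the spreading module, Mdc1 and H2afx held the highest values of the 9, and Rnf8 lay lower. Mdc1 (chr17:35841515-35859670), the gene of the phosphorylated-H2AX reader, had 17.5 and 20.8 (19.2 ± 2.3, SD, n = 2), with 97.3% and 98.8% of open genes below it. H2afx (chr9:44334694-44336077), the gene of the histone variant H2AX, had 15.7 and 19.9 (17.8 ± 2.9, SD, n = 2), with 95.1% and 98.4% of open genes below it. Their ranges overlapped each other, and neither overlapped that of any other gene of the 9. Their main peaks were also the widest of the 9, at 420 and 380 bp for Mdc1 and 400 and 380 bp for H2afx.

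Rnf8 (chr17:29614790-29644991), the ubiquitin ligase gene, stood apart from these with 9.51 and 7.38 (8.45 ± 1.5, SD, n = 2). Its range overlapped those of Topbp1 and Atr. The Rnf8 peak also touched the window of Gm28043, a same-strand gene model that starts 86 bp away and runs on into the next gene. A noncoding gene on the opposite strand, AC163629.1, starts inside the Rnf8 peak of both libraries, at -20 bp from the Rnf8 5′ end. Of neighbours in the order of the 9 means, the ranges of Mdc1 and H2afx, Topbp1 and Rnf8, Rnf8 and Atr, and Trip13 and Hormad1 overlapped. Within each library, Mdc1 was nevertheless above H2afx, Rnf8 above Atr and Trip13 above Hormad1, and the order of Topbp1 and Rnf8 alone switched. The remaining neighbouring pairs did not overlap, and 7 of 9 genes kept their library difference inside the range that holds the middle of open genes at such values (centred log2 ratio from -0.39 to 0.39, the 5th to 95th percentile of 7059 genes). The exceptions were Brca1, at 0.49 through the Nbr1 peak, and H2afx, at 0.41.

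**Figure D1:**
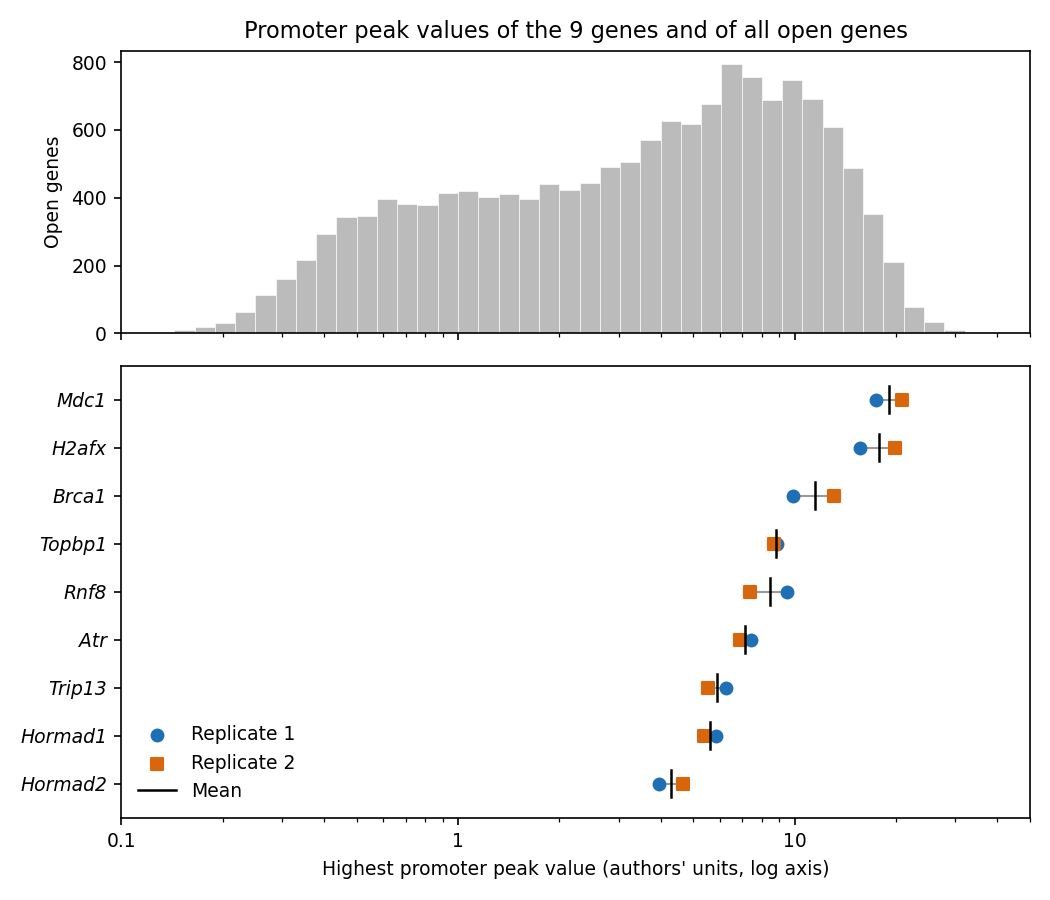
Top, histogram of the mean highest promoter peak value of all 15057 open genes (vertical axis, number of genes), and bottom, the value of each of the 9 genes in replicate 1 (circle) and replicate 2 (square), with the mean as a vertical bar. Both panels share a log axis in the authors' units, and Mdc1 and H2afx lie in the right tail of the histogram while Hormad2, at 3.96 and 4.65, lies nearest to the open-gene median.

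Outside the main peaks, the promoter windows held weaker ones, and these were mostly listed in a single library. Of 13 promoter peaks of the 9 genes in replicate 1 and 17 in replicate 2, 8 had no peak in the other library. A listed peak and the FDR track, which gives the false discovery rate of the cut rate per stretch of bases below 0.05, did not always tell the same story. For 4 of the 8, the other library's FDR track covered every base. At H2afx, replicate 1 listed a peak of 3.75 centred 737 bp downstream of the 5′ end, beyond the start of this short gene. Replicate 2 listed none there, but its FDR track covered all 380 bp, down to an FDR with a -log10 of 42.2.

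Topbp1 showed the reverse. Replicate 2 listed a peak of 2.46 centred 256 bp downstream, and replicate 1 listed none, although its track covered the 260 bp down to a -log10 FDR of 38.4. The weak peaks of Atr in replicate 2 (0.812, at +864 bp) and of Trip13 in replicate 1 (0.290, at -679 bp) were likewise covered in the other library. Hormad1 had a second peak in both libraries, with 0.624 and 0.521, centred 524 and 534 bp downstream. Hormad2 had its main peak alone.

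The other 4 single-library peaks had no base in the track of the other library, and all were in replicate 2. One was at Rnf8 (0.438, at +991 bp) and 3 were at Mdc1, with 0.551 at +696 bp, 0.223 at +6539 bp and 0.487 at +6796 bp. Outside the promoter windows, replicate 2 listed 4 more peaks near Mdc1 that replicate 1 did not, with 0.619 at -1819 bp, 0.517 at +1816 bp, 0.310 at +2196 bp and 0.234 at +9417 bp. Beyond the promoter windows, 730 bases of the Mdc1 gene were below FDR 0.05 in replicate 2, of which 69 were exonic, and 0 bases in replicate 1.

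The main Mdc1 peak differed between the libraries in the same track far more than in its value. The lowest FDR under the peak had a -log10 of 136 in replicate 1 and 1143 in replicate 2, both at a stretch that begins 64 bp upstream of the 5′ end, against values of 17.5 and 20.8. At the highest peaks of the other 8 genes, the -log10 ran from 63.8 to 189 in replicate 1 and from 69.7 to 221 in replicate 2. Within the Mdc1 promoter windows, 873 and 1821 bases were below FDR 0.05, a log2 ratio of 1.06, and 97.7% of open genes had a lower ratio. For the other 8 genes this ratio ran from -0.13 to 0.20. The Mdc1 results therefore rest in part on replicate 2, and the cause of its excess there was not tested. Without replicate 2, the Mdc1 value of 17.5 was still the highest of the 9.

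**Figure D2:**
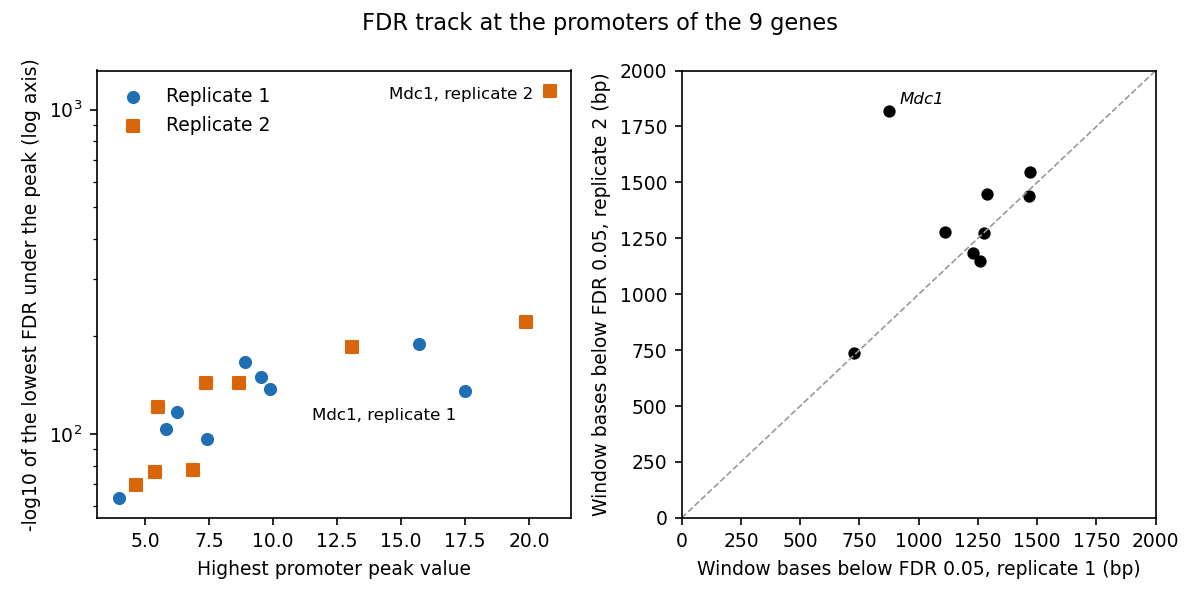
Left, the highest promoter peak value of each gene (horizontal, authors' units) against the -log10 of the lowest FDR under that peak (vertical, log axis) in replicate 1 (circles) and replicate 2 (squares). Right, promoter window bases below FDR 0.05 in replicate 1 against replicate 2 (bp), 1 point per gene with equality dashed. Mdc1 in replicate 2 stands at 1143 on the left and, with 873 and 1821 bp, far above the dashed line on the right.

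Footprints were most numerous at H2afx, Brca1 and Mdc1, which had the highest promoter values, Brca1 through the Nbr1 peak. Among the rest they did not follow the values, as Trip13 had more than Topbp1, Rnf8 and Atr. Counted over all promoter windows, H2afx had 25 in each library, Brca1 16 and 22, Mdc1 12 and 19, and Trip13 11 and 14. Hormad1 had 6 and 5, and Hormad2 7 and 7, the fewest. Atr, Topbp1 and Rnf8 had between 8 and 10. The median of the 9 genes was 9 and 10, beside 8 and 9 for open genes, and windows differ in total length, from 2001 bp for H2afx to 12972 bp for Atr.

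The positions of the footprints recurred between the libraries. Of the 102 footprints of the 9 genes in replicate 1, 84.3% touched a footprint of replicate 2, and of the 120 in replicate 2, 72.5% touched a footprint of replicate 1. Over all open promoters, which were not matched to the 9 genes for promoter value or footprint number, these shares were 66.1% and 54.5%. At H2afx, 22 and 20 of the 25 footprints recurred, and they ran on past the main peak into the gene, through the region where only replicate 1 listed a peak. At Mdc1, 10 footprints recurred in each library, and 9 of the 19 in replicate 2 did not.

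**Figure D3:**
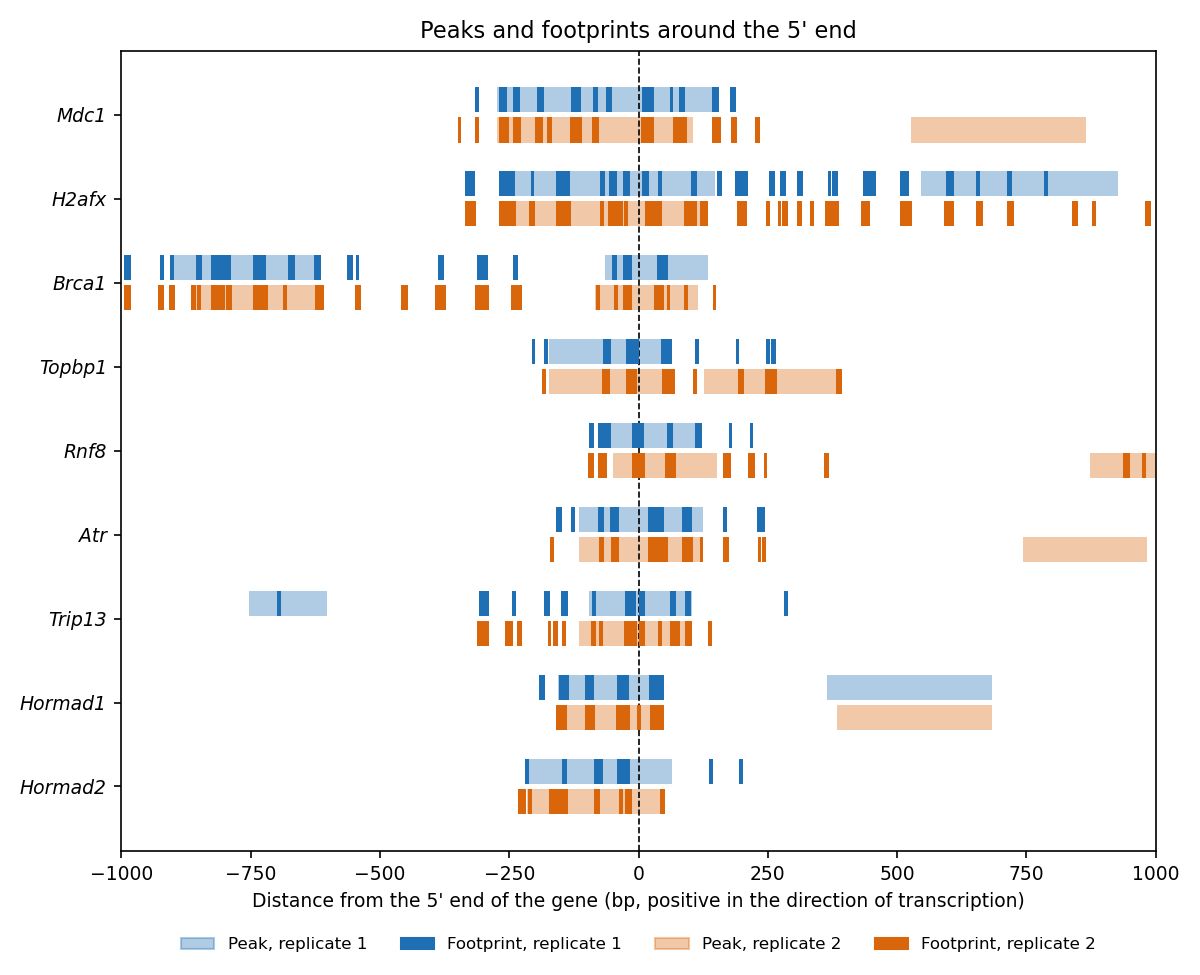
Peaks (pale bars) and footprints (dark bars) of replicate 1 (blue, upper row of each gene) and replicate 2 (orange, lower row), by distance from the 5′ end in bp, positive in the direction of transcription. Main peaks and most footprints line up between the libraries. The weaker peaks of Mdc1, H2afx, Topbp1, Rnf8, Atr and Trip13 appear in a single row. The Brca1 row holds the Nbr1 peak on the left and the own-start peak at 0.

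For sequence features, a 300 bp window was centred on each highest peak and set beside 13069 such windows of open genes. The 9 windows had a median GC content of 63.0%, and the open-gene windows 64.7%. The median ratio of observed to expected CpG was 0.884 in the 9 windows and 0.792 in the open-gene windows. Hormad2 had the lowest CpG ratio of the 9, 0.540, with 18.3% of open-gene windows below it, and Topbp1 the highest, 1.02. The windows were searched on both strands for 13 short motifs by exact match, and a match is a description of letters, not evidence that a factor binds.

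Footprints of the libraries covered some matches wholly and others in part, and "inside" is used here where every base of a match lay in a footprint. Hormad1 was the only gene of the 9 with the NRF1 motif GCGCATGC, present in 6.09% of open-gene windows. Its 2 matches overlap each other on opposite strands, from -36 to -27 relative to the 5′ end, inside a footprint in both libraries, as were 76.3% of all its matches in open-gene windows. Hormad1 alone also held the E-box CACGTG, which 11.0% of windows held, at -57, outside footprints, and at -20, where the footprints covered 1 and 3 of its 6 bases. An E2F motif, TTCCCGC, lay on the opposite strand at -95, again inside a footprint in both libraries. Of all matches to this motif in open-gene windows, 12.9% lay inside in both. This motif was also found at Mdc1 and Rnf8, outside footprints, in the own-start peak of Brca1 at +56, with 1 and 5 of its 7 bases in footprints, and in 9.49% of open-gene windows.

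Hormad2 held the single match to CNCCTCAG, a motif form given for STRA8, the transcription factor of meiotic entry. It lay on the opposite strand at -86 to -79, inside a footprint in both libraries, and 9.85% of open-gene windows held such a match. Of all such matches in these windows, 9.73% lay inside in both. The CCAAT box, CCAAT, was present at Mdc1, H2afx and the Nbr1 peak of Brca1, the highest 3 by value, and in 37.4% of open-gene windows. H2afx held 3, of which those at -157 and -151 lay inside a footprint in both libraries and that at -66 had 1 base and 0 bases in footprints. Mdc1 held 1, at -92, with 2 and 3 of its 5 bases in footprints. The Nbr1 peak held 4, of which those at -811 and -853 lay inside footprints in both libraries, and the own-start peak of Brca1 held 1, at -86. Of all matches to CCAAT in open-gene windows, 16.6% lay inside in both.

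The GC box GGGCGG was the commonest motif, found in 7 of 9 windows and in 68.7% of open-gene windows. At Atr the copies at -72 and -48 lay inside footprints in both libraries. Of the 15 copies in the 9 windows, 4 lay inside in both, beside 34.6% of all copies in open-gene windows. The GC box at -22 in Rnf8 overlaps its E2F motif, and neither touched a footprint. The short MYB motif GNCNGTT was found in 5 windows (Mdc1, H2afx, Topbp1, Atr and Hormad1) and in 32.7% of open-gene windows. Of its 8 matches, 6 touched a footprint in both libraries, beside 22.4% of all its matches in open-gene windows. None of the 8 lay inside in both, beside 7.81% of all. The open-gene windows were not matched to the 9 genes for promoter value or footprint number. No window of the 9 held TCTCGCGA (BANP, 2.30% of windows), TGACGTCA (CRE, 3.57%), CCGGAAGT (ETS, 7.97%), AAGATGGC (YY1, 4.97%), GTTGCCAT (an RFX motif, 1.35%) or ACANTGT (DMRT, 3.30%).

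Distal peaks were those within 50 kb of a start and outside the promoter windows of all protein-coding genes. The 9 genes had a median of 5 in each library, beside 5 and 6 for open genes and 4 for all genes. They thus had no more than the usual open gene. Trip13 had 9 and 8, Topbp1 6 and 6, Rnf8 5 and 5, H2afx 4 and 4, and Atr 3 and 2. Hormad1 and Hormad2 each had 2 and 3, among the fewest. Brca1, with 5 and 10, and Mdc1, with 5 and 9, differed most between the libraries.

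The distal peaks were weak. They numbered 41 in replicate 1, with values from 0.280 to 2.70, and 50 in replicate 2, with values from 0.196 to 1.80, and none reached the lowest promoter value of the 9. In each library 34 touched a peak of the other, 82.9% and 68.0%, beside 80.0% and 67.1% of all distal peaks. The strongest lay 32456 bp downstream of the Mdc1 5′ end, in an exon of Ppp1r18, with 2.70 and 1.80. The next by mean lay between genes at -28154 and -28164 bp from the Mdc1 5′ end, with 1.23 and 1.40. Of the Brca1 peaks in replicate 2, 5 were not in replicate 1, and 4 of these, with values from 0.196 to 0.306, lay in exons or introns of Vat1.

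Several distal peaks lay close to the gene or inside it. Rnf8 had a peak 11309 bp upstream, in an intron of Tbc1d22b, with 1.39 and 0.812. Atr had peaks of 0.479 and 0.468 at -4482 and -4479 bp, and of 0.511 and 0.411 at -1321 and -1364 bp. Topbp1 had an intronic peak of 0.495 and 0.627 at +4829 and +4806, and Brca1 an intronic peak of 0.317 and 0.359 at +35444 and +35519. Hormad2 had peaks between genes at -10200 and -10206, with 0.489 and 0.494, and at -20282 and -20291, with 0.457 and 0.672, with no other gene's start nearer. Which gene a distal peak acts on was not measured, and 7 other genes had a start within 50 kb at Mdc1 and at H2afx, but 1 at Hormad2.

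**Figure D4:**
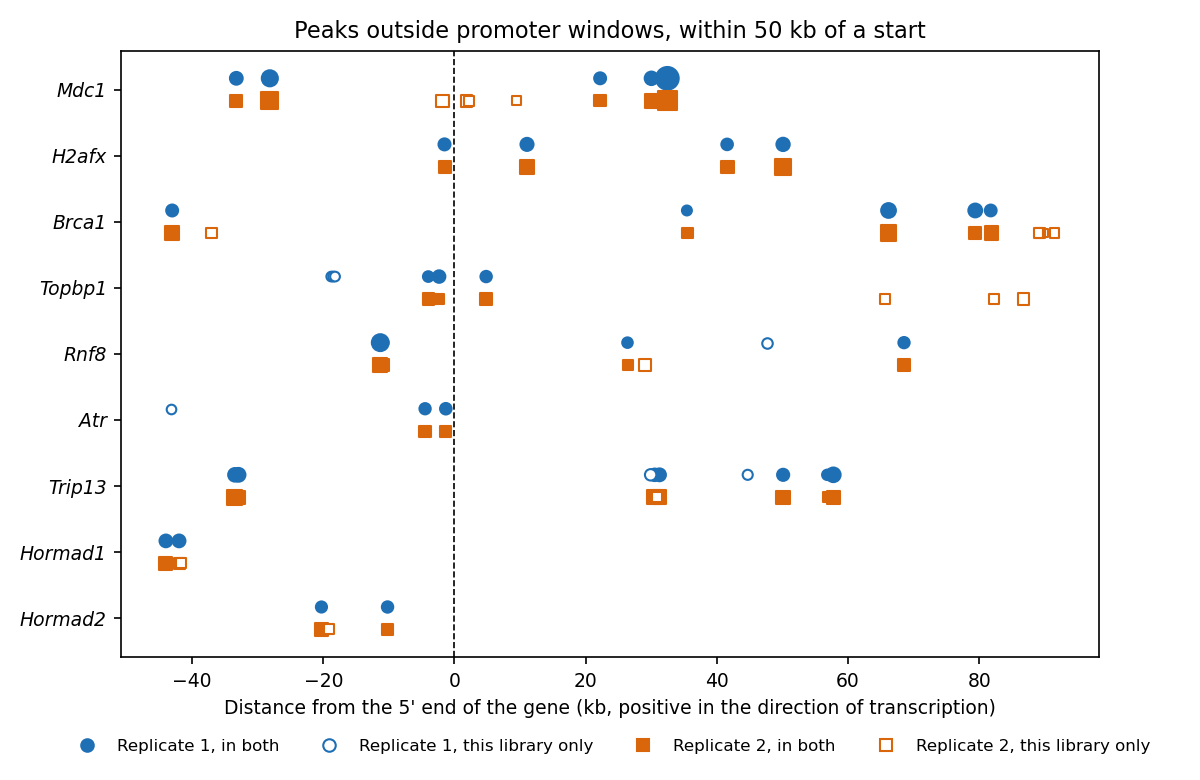
Distal peaks of each gene by distance from its 5′ end (kb, positive in the direction of transcription), with replicate 1 as circles and replicate 2 as squares; larger symbols have higher values, and open symbols mark peaks listed in that library alone. The open squares at Mdc1 lie within 10 kb of the 5′ end, and the largest symbols, 2.70 and 1.80, lie in Ppp1r18.

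Other genes of the same pathways were read from a list of 43 genes, and 41 had a promoter peak in both libraries, or 95.3%, beside 68.7% of all genes. Their median promoter value was 6.90 and 6.26 (6.58 ± 0.45, SD, n = 2), between those of the 9 genes and of all open genes. All 12 genes of the ATM and ATR branch were open, with a median of 6.77 ± 0.61 (SD, n = 2). In it, Atm, the kinase that marks H2AX earlier in prophase, had 17.1 and 16.3, above Atr in both libraries. Peaks shared with neighbouring genes were not resolved for single genes of this list, so a value may not be that of its gene alone. Hus1b, a testis-expressed paralogue of the clamp subunit HUS1, had 2.53 and 2.62. All 8 genes of the sensor and ubiquitin steps were open, with a median of 7.75 ± 0.65 (SD, n = 2). Their highest was Herc2, a ubiquitin ligase that works with RNF8, with 17.5 and 18.3.

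All 7 BRCA1 partner genes were open, with a median of 5.32 ± 1.1 (SD, n = 2). Of 6 partners of the HORMA proteins and TRIP13, 5 were open. Mad2l1bp, the adaptor by which TRIP13 acts on the spindle checkpoint protein MAD2, had 2.50 and 2.46. Iho1, listed under its older symbol Ccdc36 and encoding a HORMAD1 partner in double-strand break formation, had no promoter peak in either library. Of 10 silencing effectors, 9 were open. Ino80, a chromatin remodeller, had 14.6 and 18.9, and Dot1l, a histone H3 methyltransferase, had 16.8 and 13.6. The lowest were Scml2, a germline Polycomb protein gene on the X chromosome, with 0.796 and 0.781, and Zfy1 on the Y chromosome, with 1.52 and 1.62. No peak was listed at Zfy2, the other Y-linked member of that pair. Reads that map to more than 1 place can be lost at genes with close copies, and the treatment of such reads is not stated. Whether this affected Zfy1 or Zfy2 was not tested.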

How the data were processed

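Per the deposited text descriptions, the authors made 2 peak lists, a list of footprints and an FDR track for each library on mm10, from its own alignments. Not given in the sources used here are the aligner, the callers and their versions. The peak value is a signal deposited by the authors and scaled per library, since 100% of values below 1 were whole multiples of a step of 0.00538 or 0.00377 within 0.05 steps. The FDR track holds a deposited q-value per stretch of bases, over 31.0 and 34.9 Mb, listed only below 0.05. The deposited p-value of footprints is 0.01 in all rows, so only their positions (269247 and 349555) were used. Read depth is unknown, and no counting interval was given.

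The longer lists were used, with an overlap of 1 bp or more. Coordinates matched GRCm38.p6 on 21 chromosomes. Values are given per library and as mean ± SD. No test between groups was possible with 1 group. In sequence comparisons, 701 open genes were left out because the highest peaks of the libraries lay over 300 bp apart. The members and gene lists were chosen with earlier results of these data known. Genes named were all 9 members, every protein-coding gene sharing a member's highest peak, and, of the pathway list, the 4 highest and 4 lowest open genes and those without a peak in both libraries. Genes at distal peaks, noncoding genes with a start in a main peak, marker genes and single motif matches were named after their values were seen. Scripts used Python 3.11.15, pandas 2.3.3, numpy 2.4.6, pysam 0.24.0 and matplotlib 3.10.9, and were tested on simulated data.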

Additional observations from a re-analysis of the deposited data

How the results depend on the processing

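The count of open genes was 9 of 9 under every alternative tried, and the median promoter value moved by less than 1 SD in each that kept both libraries. The count of open pathway list genes, 41 of 43, became 40 with the 5′ end alone and 39 with shared peaks counted only at the nearer gene. The shares of all genes under these 2 settings were 64.0% and 65.1%. The median number of distal peaks, 5.00, became 2.50 within 25 kb, 11.5 within 100 kb, 2.00 with the shorter peak list and 3.00 outside windows of 2500 bp. The median number of footprints, 9.50, became 11.5 in windows of 2500 bp and 4.50 when only those inside promoter peaks were counted. The median length below FDR 0.05, 1268 bp, became 1026 bp below FDR 0.001. Of the single genes, Brca1 fell from 11.5 to 6.37 with windows of 500 bp or with shared peaks counted at the nearer gene. Summing all promoter peaks moved 4 genes by more than 1 SD, among them to 17.9 for Brca1, 7.56 for Atr and 6.17 for Hormad1. The other 66 values of single genes with both libraries kept moved by less than the replicate spread. Leaving out a library of 2 always moves a mean by less than 1 SD, so it says nothing of stability. With 2 libraries, an SD is itself imprecise, and reads behind each value are unknown.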

Other observations

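Stretches with an FDR so low that its negative exponent has 4 digits were rare in both tracks. Counted in bins of 100 kb, they fell in 2 bins in replicate 1 and in 6 in replicate 2, and the bin of the Mdc1 promoter was among the 6. The Mdc1 peak there had values of 17.5 and 20.8 in the libraries, and the lowest FDR under it a -log10 of 136 and 1143. The cause was not tested.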
